A study of Mus musculus with 33 samples.

Results

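Chemokines and their receptors were examined in Kupffer cells (KCs), the macs of the liver, and alveolar macs (AMs), the macs of the lung airspaces, of mice with and without Cre-driven deletion of Zeb2. The members were all genes of the count tables whose symbol starts with Ccl, Cxcl, Cx3cl, Xcl, Ccr, Cxcr, Cx3cr, Xcr or Ackr followed by a digit. This rule used the name only and found 62 of 24421 genes, namely 39 ligands, 19 receptors and 4 atypical receptors. Bulk RNA-seq had been done on 33 samples of 25000 FACS-purified cells. CRE- KCs (6 samples) and CRE- AMs (5 samples) came from Zeb2fl/fl littermates without a Cre. CRE+ KCs came from Clec4f-crexZeb2fl/fl mice and had been sorted into Tim4+ and Tim4- KCs (6 samples each). CRE+ AMs came from Itgax-crexZeb2fl/fl mice and had been sorted into CD11b- and CD11b+ AMs (5 samples each). Every mouse therefore carried the floxed Zeb2 alleles, was on the C57Bl/6 background and was 6 to 8 weeks old. Clec4f-cre is driven from the locus of a lectin gene of KCs, and Itgax-cre from that of CD11c, which other cells than AMs also express. Bulk counts do not show whether each sorted cell had lost both copies of Zeb2. The labels number the samples but do not say that each number is a separate mouse, and p-values measure only the spread between these samples.

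Chemokines are small secreted proteins that bind G-protein-coupled receptors on leukocytes and direct their migration, and they are named CC, CXC, CX3C or XC after the spacing of their first cysteines. Atypical receptors bind chemokines without signalling through G proteins. In macs, CCR2 and its ligands are known for the recruitment of monocytes, CX3CR1 for mononuclear phagocytes of many tissues, and CXCR1 and CXCR2 for the response of neutrophils to CXC ligands with a Glu-Leu-Arg (ELR) motif.

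The samples held between 9837240 and 24332306 counts on genes (median 20683608, second lowest 17454078), and levels are given as CPM (counts scaled to 1000000 counts on genes). Zeb2 was at 289 ± 34.6 CPM (SD, n = 6) in CRE- KCs, 181 ± 28.1 CPM in Tim4+ KCs and 171 ± 15.9 CPM in Tim4- KCs. In the lung it was at 198 ± 16.4 CPM (SD, n = 5) in CRE- AMs, 106 ± 11.8 in CD11b- AMs and 55.5 ± 7.39 in CD11b+ AMs. The ranges of the CRE+ groups lay below that of the CRE- group in each tissue, but the floxed allele leaves a truncated transcript, so these counts do not measure the deletion. The sort markers followed the labels. Timd4, the gene of Tim4, was at 397 CPM in Tim4+ KCs and 2.84 CPM in Tim4- KCs, and Itgam, the gene of CD11b, at 17.8 CPM in CD11b- AMs and 235 CPM in CD11b+ AMs. The 8 KC identity genes summed to at least 10817 CPM in every KC sample and to at most 221 CPM in every AM sample, and the 8 AM identity genes to at least 19687 CPM in every AM sample and at most 2390 CPM in KCs. Counts on Y-linked genes were found in replicates 5 and 6 of each KC group and in no other samples beyond 4 counts, so sex differs within the KC groups and not within the AM groups.

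Of the 62 members, 6 had no count in any sample (Ccl11, Ccl21a, Ccl21b, Ccl21c, Ccl26 and Ccl27b). The mean was under 1 CPM in every group for those and for Ccl1, Ccl19, Ccl20, Ccl27a, Ccl28, Cxcl5, Cxcl11, Cxcl15, Cxcl17, Xcl1, Ccr4, Ccr6, Ccr8 and Ccr10, 20 members in all. The other 42 reached 1 CPM in at least one group, and 19 reached 50 CPM. KCs had more members at 1 CPM or above, with 34 in CRE- KCs, 37 in Tim4+ KCs and 36 in Tim4- KCs against 25 in CRE- AMs, 25 in CD11b- AMs and 31 in CD11b+ AMs.

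**Figure D1:**
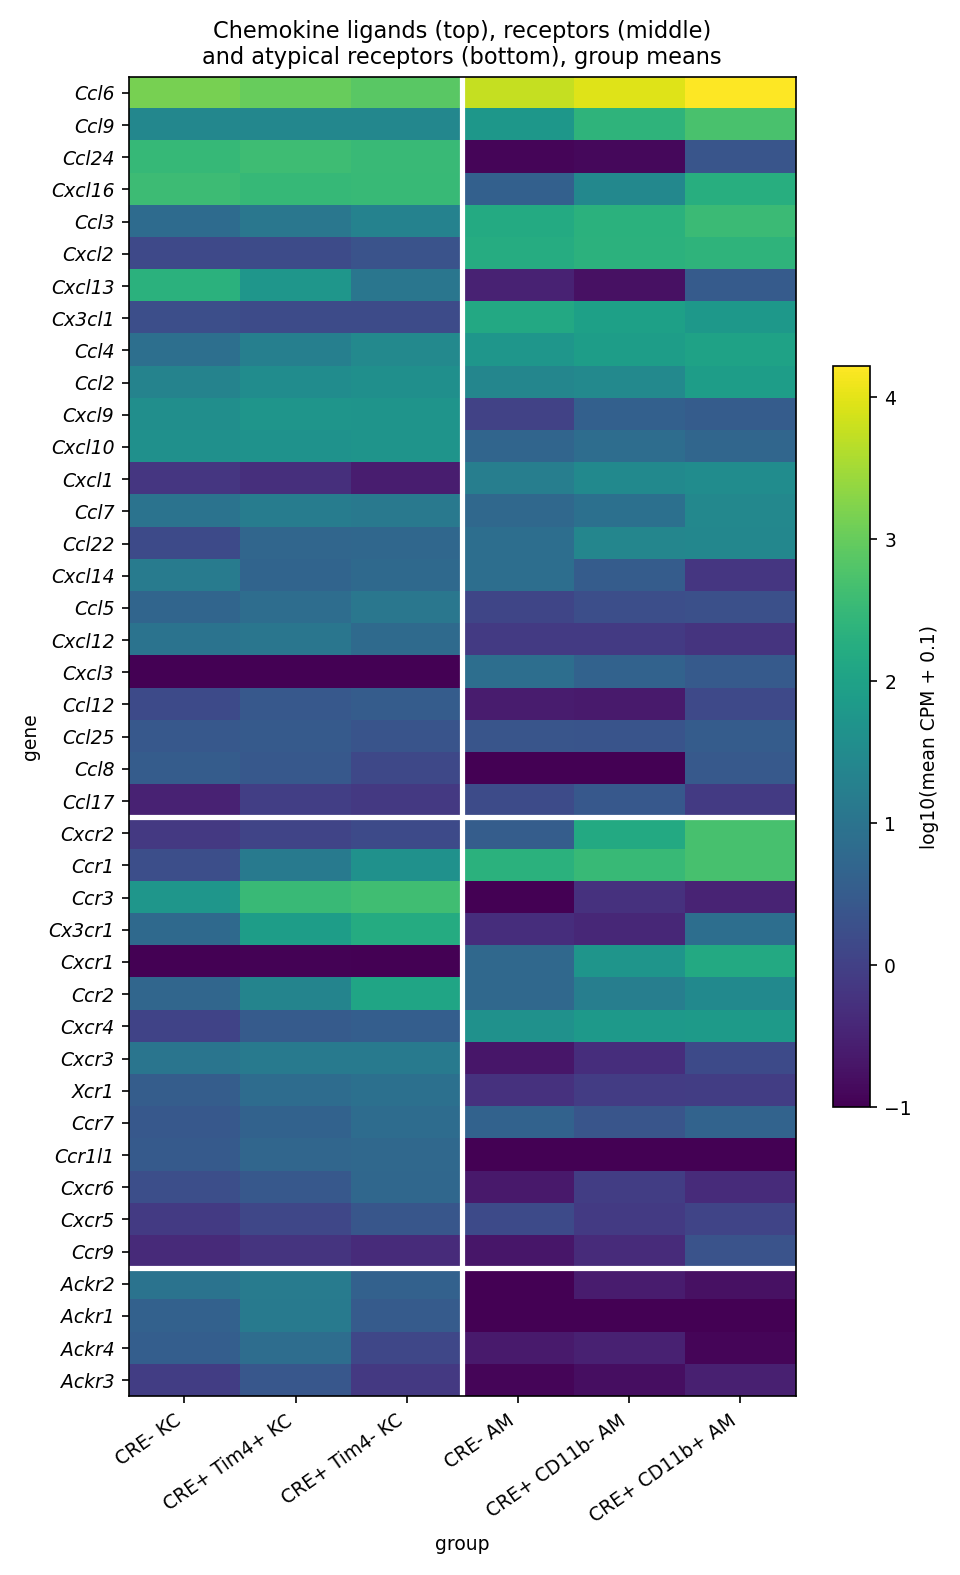
Heat map of the group means of 41 members that reached 1 CPM in at least 1 group, as log10(mean CPM + 0.1), with genes as rows (ligands, receptors and atypical receptors from top to bottom) and the 6 groups as columns. Ccl6 is the brightest row in all groups. The Ccr3, Cxcl13 and Ccl24 rows are brighter in each KC group than in each AM group, while Cxcl2, Cxcl3 and Cx3cl1 show the opposite.

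The ligands together made up 2499 ± 315 CPM (SD, n = 6) in CRE- KCs and 6435 ± 502 CPM (SD, n = 5) in CRE- AMs. This sum was 2015 ± 271 CPM in Tim4+ KCs and 1737 ± 138 CPM in Tim4- KCs, whereas it was 10233 ± 1018 CPM in CD11b- AMs and 18283 ± 1698 CPM in CD11b+ AMs. A single gene carried most of it, since Ccl6 gave 55.6% of the ligand sum in CRE- KCs and 89.7% in CRE- AMs. The receptors together were at 614 ± 83.4 CPM in CRE- KCs, 954 ± 376 CPM in Tim4+ KCs and 1291 ± 447 CPM in Tim4- KCs. In AMs this sum was 286 ± 6.91 CPM without Cre, 621 ± 110 in CD11b- AMs and 1299 ± 85.0 in CD11b+ AMs. In CRE- AMs, 75.1% of the receptor sum came from Ccr1. Per kilobase of annotated exon, Ccl6 was the most abundant member in each of the 6 groups, at 774 ± 129 CPM per kb in CRE- KCs and 3216 ± 235 CPM per kb in CRE- AMs, with Ccl24 next in KCs (247 ± 50.4 CPM per kb in CRE- KCs) and Ccl3 next in AMs (198 ± 47.4 CPM per kb in CRE- AMs).

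The first comparison asked how the members differ between the macs of the 2 tissues when Zeb2 is intact. Relative to CRE- AMs, CRE- KCs were higher in 18 members and lower in 14 of the 40 that passed the filter on low counts (edgeR's quasi-likelihood test, adjusted p below 0.05 over all genes and a log2 fold change beyond 1 in size). Over all 12145 genes tested, 20.9% were called higher and 12.4% lower. The median log2 fold change was 0.66 over the tested members and 0.03 over all tested genes. The sample values of the groups did not overlap for the 32 called members, nor for 90.3% of all called genes.

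Of the ligands, CRE- KCs were marked by Ccl24, Cxcl16, Cxcl13 and Cxcl9. Ccl24, a ligand of CCR3, ranged from 215 to 389 CPM (median 342) in CRE- KCs and was at 0, 0.0499, 0.0473, 0 and 0 CPM in CRE- AMs. With 2 counts over the AM group, the ratio was 16498.5 with an exact 95% interval for counting error of 4567 to 136238. Cxcl16, the membrane-bound ligand of CXCR6, ranged from 326 to 464 CPM (median 377) in CRE- KCs and was at 3.27, 3.44, 3.31, 3.14 and 6.13 CPM in CRE- AMs. Each KC sample was thus far above each AM sample (log2 fold change 6.64 ± 0.19 SE, adjusted p = 9.16e-13). Cxcl13, the B cell attractant that binds CXCR5, ranged from 144 to 415 CPM (median 172) in CRE- KCs and was counted in only 2 of the 5 CRE- AM samples, at 0.387 and 0.669 CPM (10.02 ± 0.57). Cxcl9, an interferon-induced ligand of CXCR3, ranged from 28.1 to 45.9 CPM (median 37.2) against 0.598, 0.898, 1.56, 1.06 and 0.721 CPM (5.29 ± 0.24). Cxcl10, its neighbour on chromosome 5 and another CXCR3 ligand, was 3.11 ± 0.25 higher. The other ligands that were higher in CRE- KCs were low in level, with log2 fold changes of 3.84 for Cxcl12, 3.24 for Ccl12 and 2.10 for Ccl5. Ccl8, a CCR2 ligand in this list, had no count in CRE- AMs and was at least 109-fold higher in CRE- KCs, taking 3 counts over the group as the limit that a count of 0 allows.

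CRE- AMs were marked by Ccl6, Ccl3, Cxcl2 and Cx3cl1. Ccl6, a CC ligand of the CCR1 group, was at 6243, 6051, 5332, 5911 and 5325 CPM in CRE- AMs and ranged from 970 to 1645 CPM (median 1427) in CRE- KCs, with a log2 fold change of -2.04 ± 0.10. Its neighbour Ccl9 was at 57.9, 68.1, 62.4, 56.3 and 38.6 CPM in CRE- AMs and from 20.8 to 32.2 CPM (median 25.3) in CRE- KCs (-1.13 ± 0.14). Both therefore had their higher level in the lung. Ccl3, a CC ligand that binds CCR1, was at 172, 180, 123, 182 and 104 CPM in CRE- AMs and from 2.76 to 11.6 CPM (median 6.4) in CRE- KCs (-4.5 ± 0.30). Ccl4, a close relative of Ccl3, was at 64.9, 60.2, 39.3, 65.2 and 48.8 CPM against 3.26 to 11.2 CPM (median 8.31, log2 fold change -2.77 ± 0.25). Thus the 4 CC ligands that lie side by side on chromosome 11 had their higher values in AMs, and Ccl5, at the edge of the same cluster, had its higher values in KCs. Cx3cl1, the membrane-anchored ligand of CX3CR1, was at 140, 146, 155, 137 and 139 CPM in CRE- AMs and from 0.230 to 3.17 CPM (median 1.80) in CRE- KCs (-6.39 ± 0.31). Ccl22 and Ccl17, both ligands of CCR4, were lower in CRE- KCs by log2 fold changes of -2.44 and -2.67.

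Of the 5 ELR CXC ligands, 3 passed the filter on low counts, and all 3 were higher in CRE- AMs. In the fit of KC samples only Cxcl2 passed this filter. Cxcl1 and Cxcl3 were thus tested here through their AM counts, which largely set their side in advance. Cxcl2 was at 173, 184, 133, 217 and 139 CPM in CRE- AMs and from 0.965 to 1.73 CPM (median 1.28) in CRE- KCs (-6.98 ± 0.18, adjusted p = 2.74e-13), and Cxcl1 had a log2 fold change of -4.89 ± 0.38. Cxcl3 had no count in any KC sample, and its 765 counts in CRE- AMs put it at least 307-fold above CRE- KCs. Reads of Cxcl2 and Cxcl3 can be told apart over most of their length, because 6.45% of the 35-base windows of the longest Cxcl2 transcript and 4.71% of those of Cxcl3 occur in another gene's transcripts. The 3 genes lie within 147 kb on chromosome 5 in mm10. The 250 bases before their starts are shown because the genes are neighbours and these windows share a stretch of letters. Capitals mark matches to the NF-kB pattern, GGG and then any 2 bases and then TTTCC, on either strand, which 1.41% of all 32851 RefSeq promoter windows of this length hold. The windows are from RefSeq on GRCm38.p6 and are written 5′ to 3′ on the strand of the gene.
Cxcl1 (chr5:90890995-90891244, plus strand): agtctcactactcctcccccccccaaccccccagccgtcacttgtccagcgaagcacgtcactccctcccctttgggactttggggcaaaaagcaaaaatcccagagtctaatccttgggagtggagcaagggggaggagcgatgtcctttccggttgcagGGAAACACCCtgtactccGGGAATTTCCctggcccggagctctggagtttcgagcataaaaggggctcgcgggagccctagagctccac
Cxcl2 (chr5:90903649-90903898, plus strand): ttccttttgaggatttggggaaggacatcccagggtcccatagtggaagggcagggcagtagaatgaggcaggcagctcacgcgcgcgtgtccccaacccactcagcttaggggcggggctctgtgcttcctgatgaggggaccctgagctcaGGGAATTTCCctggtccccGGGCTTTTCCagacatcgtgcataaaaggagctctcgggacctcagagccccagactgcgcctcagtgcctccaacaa
Cxcl3 (chr5:90785851-90786100, plus strand): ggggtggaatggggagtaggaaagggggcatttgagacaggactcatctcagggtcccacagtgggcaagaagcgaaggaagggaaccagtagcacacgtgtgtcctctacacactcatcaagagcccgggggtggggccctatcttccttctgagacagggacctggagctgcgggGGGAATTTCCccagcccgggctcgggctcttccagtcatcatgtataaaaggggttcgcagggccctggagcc
Each of the 3 holds the run GGGAATTTCC. Among the 46 members with a RefSeq promoter window, 6 hold the pattern (Ccl9, Ccl20, Ccr3, Cxcl1, Cxcl2 and Cxcl3). A match in letters is a description of the sequence and was not tested as a binding site.

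Among the receptors, Ccr3 and Cxcr3 were higher in CRE- KCs and Ccr1, Cxcr4, Cxcr1 and Cxcr2 in CRE- AMs. Ccr3, best known from eosinophils, ranged from 44.1 to 62.3 CPM (median 53.4) in CRE- KCs and had no count in CRE- AMs, which puts it at least 1847-fold higher in KCs. The eosinophil granule gene Epx had no count in any KC sample, and the part of eosinophil RNA in these Ccr3 counts was not tested. Cxcr3 (6.60), Cx3cr1 (3.95) and Xcr1 (2.91) were higher in CRE- KCs by the log2 fold changes given, and Ccr1l1, a relative of Ccr1, was at least 98.0-fold higher, with no count in any AM sample. Cx3cr1 was nevertheless low in CRE- KCs, between 2.57 and 8.86 CPM (median 6.53).

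Ccr1 was at 208, 213, 220, 206 and 227 CPM in CRE- AMs and between 0.283 and 4.84 CPM (median 0.545) in CRE- KCs (-6.92 ± 0.51). The upper values of CRE- KCs were those of replicates 5 and 6, at 3.77 and 4.84 CPM, the samples with Y-linked counts, and the other 4 lay between 0.283 and 0.578 CPM. Cxcr4, the receptor of Cxcl12, was at 45.4, 46.3, 41.2, 44.3 and 44.8 CPM in CRE- AMs and between 0.322 and 2.18 CPM (median 0.853) in CRE- KCs (-5.41 ± 0.31). Cxcr2 was at 5.06, 2.10, 3.31, 2.37 and 3.81 CPM in CRE- AMs and between 0.436 and 0.866 CPM (median 0.588) in CRE- KCs (-2.39 ± 0.36). Cxcr1 had no count in CRE- KCs and 4.46, 5.94, 6.85, 5.03 and 6.49 CPM in CRE- AMs, at least 237-fold higher. Ccr2 did not separate the tissues, with 2.39 to 7.47 CPM (median 5.12) in CRE- KCs and 7.32, 5.64, 6.57, 5.71 and 2.68 CPM in CRE- AMs (log2 fold change -0.12 ± 0.35, adjusted p = 0.79), and Ccl2, its main ligand, was at 21.5 ± 6.86 and 24.7 ± 8.67 CPM (-0.19 ± 0.23, adjusted p = 0.51).

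The atypical receptors had most of their counts in KCs. Ackr2 was at 9.49 ± 4.69 CPM in CRE- KCs and at least 327-fold above CRE- AMs, Ackr1 at 4.17 ± 0.885 CPM and at least 143-fold, and Ackr4 at 3.56 ± 1.64 CPM and 4.63 ± 0.79 higher on the log2 scale. The 10 liver endothelial marker genes summed to between 821 and 2401 CPM in CRE- KCs and to at most 5.53 CPM in CRE- AMs, and all 10 were counted in each KC group, with Stab2 and Cdh5 highest in CRE- KCs. The paper counts Cdh5 among its core KC genes, and its mean was 245 CPM in CRE- KCs. In bulk samples, fewer cells of a type and less RNA per cell cannot be told apart, and the part of endothelial RNA in these 3 receptors was not tested.

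**Figure D2:**
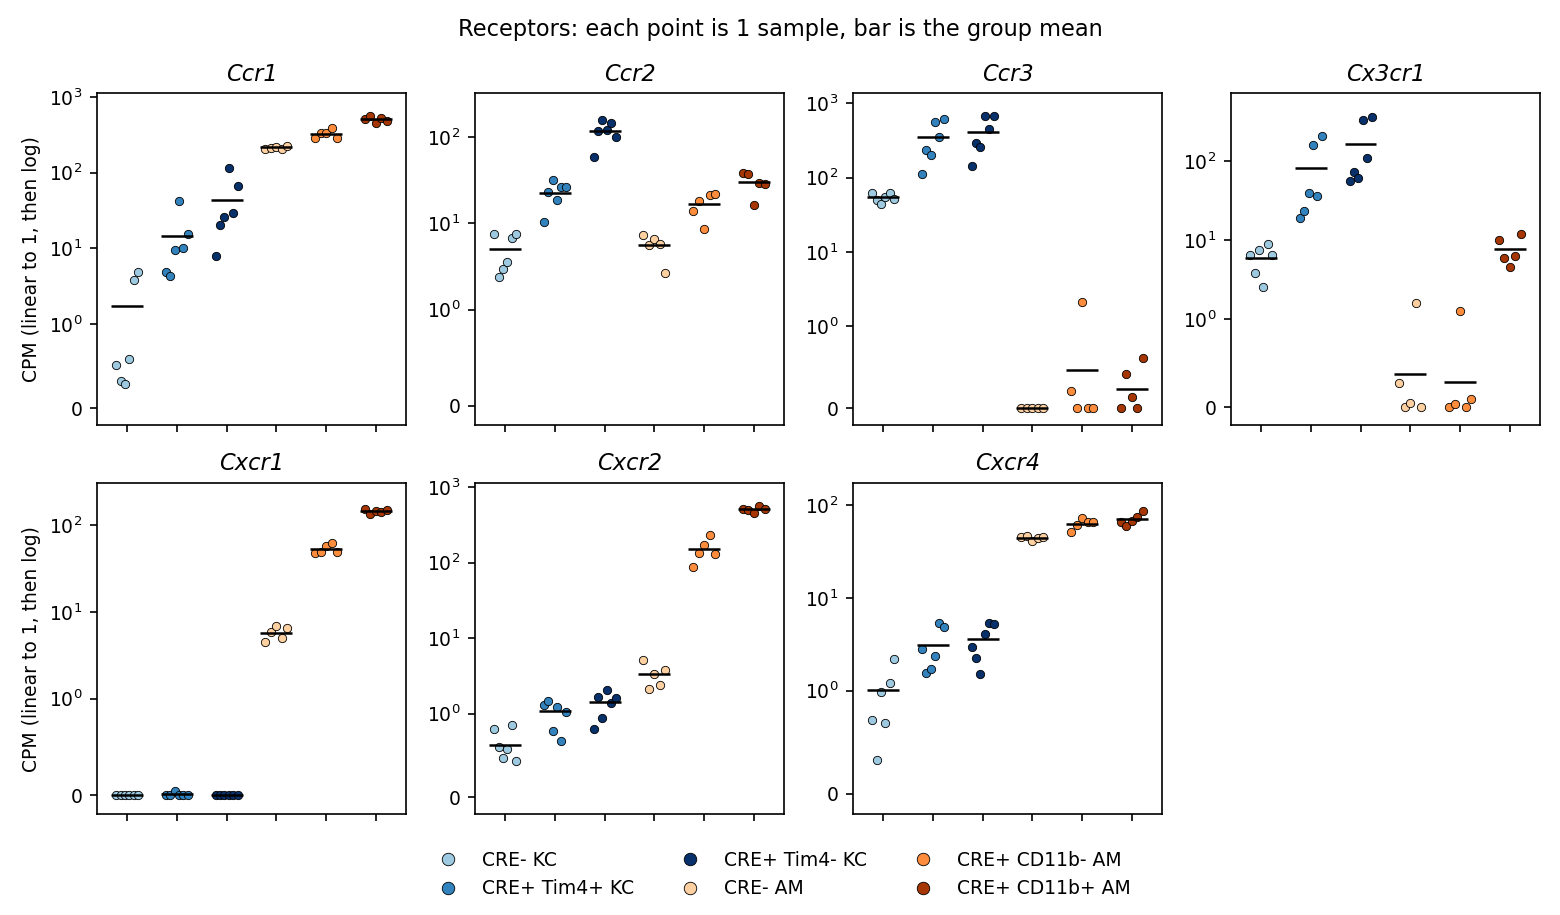
CPM of 7 receptors in each sample (points) with the group mean (bar), on an axis that is linear to 1 CPM and logarithmic above, with the 6 groups from left to right in the order of the legend. Ccr1, Ccr2, Ccr3 and Cx3cr1 rise in the CRE+ KC groups. Cxcr1, Cxcr2, Ccr1 and Ccr2 rise in the CRE+ AM groups, with CD11b+ AMs highest, and Cx3cr1 rises in CD11b+ AMs only.

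The next comparisons asked which members change in KCs of Clec4f-crexZeb2fl/fl mice. In Tim4+ KCs, 7 members rose and 2 fell relative to CRE- KCs among the 42 tested, where 1.94% of all 12500 genes tested were called higher and 0.376% lower. In Tim4- KCs, 15 members rose and 4 fell, where 3.43% of all genes were called higher and 5.39% lower. The median log2 fold change over the tested members was 0.67 in Tim4+ KCs and 0.54 in Tim4- KCs, against -0.003 and -0.03 over all tested genes. Of the 14 receptors tested, 5 rose in Tim4+ KCs and 10 in Tim4- KCs, respectively. Both comparisons use the same 6 CRE- KC samples, so they are not independent of each other. Sample values of the CRE+ and CRE- groups did not overlap for 4 of the 9 called members in Tim4+ KCs (44.4%, against 79.2% of all called genes) and for 8 of the 19 in Tim4- KCs (42.1%, against 56% of all called genes).

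Ccr2, the monocyte receptor for Ccl2, Ccl7 and Ccl12, rose in both CRE+ groups. It ranged from 10.3 to 31.4 CPM (median 24.6) in Tim4+ KCs and from 58.9 to 158 CPM (median 118) in Tim4- KCs, compared with 7.47 CPM at most in CRE- KCs. The 3 groups did not overlap, and the log2 fold changes were 2.11 ± 0.31 (adjusted p = 1.06e-04) and 4.52 ± 0.33 (adjusted p = 3.38e-09). Cx3cr1, the receptor of Cx3cl1, ranged from 19.1 to 211 CPM (median 38.0) in Tim4+ KCs and from 55.4 to 358 CPM (median 91.4) in Tim4- KCs (3.73 ± 0.66 and 4.79 ± 0.69). No CRE- KC sample exceeded 8.86 CPM, but limma-voom did not call Cx3cr1 in Tim4+ KCs (log2 fold change 3.22, adjusted p = 0.083). The highest Cx3cr1 values in each CRE+ KC group were those of replicates 4 and 6, at 158 and 211 CPM in Tim4+ KCs and at 335 and 358 CPM in Tim4- KCs. The 7 monocyte genes, from a cell type known for Ccr2, summed to 174 to 321 CPM (median 261) in CRE- KCs, 151 to 337 CPM (median 207) in Tim4+ KCs and 195 to 665 CPM (median 266) in Tim4- KCs. Plac8 led this list and Vcan had no count in any CRE+ KC sample, and the part of monocyte RNA in the counts of Ccr2 and Cx3cr1 was not tested. In the paper, CRE+ KCs lacking Siglecf and Timd4 but with Cx3cr1 and Ccr2 were taken as putative monocyte-derived KCs, heterozygous for Zeb2. KCs with SiglecF had efficiently lost Zeb2 there. Here mean Siglecf was 4.62 CPM in CRE- KCs, 175 CPM in Tim4+ KCs and 294 CPM in Tim4- KCs. The Tim4- samples are therefore not that Siglecf-negative group alone, and the share of each group in them was not tested. The paper also lists Ccr1, Ccr2, Ccr3, Cx3cr1 and Cxcl13 among genes that differ between monocyte-derived and embryonic KCs. The part of cell origin in the changes of these members was not tested.

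Ccr3 was the receptor with the largest gain in CPM. It ranged from 113 to 616 CPM (median 296) in Tim4+ KCs and from 143 to 681 CPM (median 377) in Tim4- KCs, above the 62.3 CPM of the highest CRE- KC sample in every case (2.66 ± 0.38 and 2.95 ± 0.39). Replicates 4 and 6 again held the upper values of both groups, at 569 and 616 CPM in Tim4+ KCs and at 681 and 667 CPM in Tim4- KCs. The 4 eosinophil genes, which mark the cell type with the best-known Ccr3, summed to at most 1.32 CPM in any KC sample, and Epx stayed at 0. The part of eosinophil RNA in the Ccr3 counts was not tested. Ccr1 ranged from 4.25 to 41.8 CPM (median 9.91) in Tim4+ KCs and from 7.83 to 114 CPM (median 27.4) in Tim4- KCs (3.01 ± 0.76 and 4.65 ± 0.80). The rise in Tim4+ KCs rested on the sample at 41.8 CPM, replicate 4, without which the adjusted p was 0.0689, and limma-voom gave an adjusted p of 0.215.

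Cxcr4 was at 1.02 ± 0.645 CPM in CRE- KCs and ranged from 1.56 to 5.29 CPM (median 2.58) in Tim4+ KCs and from 1.52 to 5.40 CPM (median 3.51) in Tim4- KCs (1.55 ± 0.46, adjusted p = 0.0471, and 1.79 ± 0.46). The groups overlapped, and in Tim4+ KCs the call was lost under 12 of the 18 fits that left out 1 sample. Xcr1, a receptor for Xcl1 known from cross-presenting dendritic cells, rose in Tim4- KCs (log2 fold change 1.30), as did Ccr7 (1.41), the receptor that guides cells to lymph nodes. Ccr1l1 (1.03), Cxcr2 (1.18) and Cxcr5 (1.76), all below 12 CPM in every KC sample, were also called higher in Tim4- KCs. Each of these last 3 and Ccr7 lost its call when some single samples were left out. The 7 B cell genes, whose cells are known for Cxcr5 and Ccr7, summed to 52.4 to 89.9 CPM in CRE- KCs, 23.5 to 57.4 CPM in Tim4+ KCs and 49.985 to 119 CPM in Tim4- KCs, and the part of B cell RNA in these 2 receptors was not tested.

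Cxcl13 was the ligand with the clearest fall. It ranged from 31.4 to 83.7 CPM (median 50.7) in Tim4+ KCs and from 3.90 to 23.2 CPM (median 6.78) in Tim4- KCs, both below the 144 CPM of the lowest CRE- KC sample. The log2 fold changes were -2.02 ± 0.39 (adjusted p = 2.13e-03) and -4.30 ± 0.44 (adjusted p = 3.99e-07). Cxcl14, a homeostatic CXC ligand, went from 14.4 ± 3.81 CPM in CRE- KCs to 4.71 ± 1.99 and 5.94 ± 2.10 CPM (-1.64 ± 0.29 and -1.27 ± 0.29). Ccl4 ranged from 10.6 to 27.0 CPM (median 18.7) in Tim4+ KCs and from 16.7 to 38.6 CPM (median 30.0) in Tim4- KCs (1.1 ± 0.28 and 1.84 ± 0.28). Ccl3 ranged from 7.32 to 15.9 CPM (median 12.3) and from 12.5 to 25.2 CPM (median 21.8), and passed the test only in Tim4- KCs (0.79 ± 0.29, adjusted p = 0.13, and 1.63 ± 0.29, adjusted p = 3.21e-04). All 6 Tim4- KC samples lay above all CRE- KC samples for Ccl3 and Ccl4.

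Ccl5, a CC ligand also made by T and NK cells, rose in Tim4- KCs (1.24 ± 0.32). Its highest sample there, replicate 3 at 25.7 CPM, was also the one with the highest NK cell marker sum (47.6 CPM against a group median of 4.12 CPM), and without it the log2 fold change was 0.82 (adjusted p = 0.0294). The part of NK cell RNA in this value was not tested. Ccl12 was also called higher in Tim4- KCs (1.2), as was Xcl1, an XCR1 ligand whose mean was below 1 CPM in every group and whose call was lost in 8 of the 18 fits that left out 1 sample and with limma-voom. Ccl6 was at 993 ± 158 CPM in Tim4+ KCs and 782 ± 94.4 CPM in Tim4- KCs against 1390 ± 231 CPM in CRE- KCs, with adjusted p = 7.14e-03 and 2.34e-05 but a log2 fold change within 1 (-0.52 ± 0.12 and -0.83 ± 0.12). Other ligands were not called in either group. Ccl24 was at 320 ± 65.2, 405 ± 139 and 348 ± 81.3 CPM in CRE-, Tim4+ and Tim4- KCs (0.31 ± 0.21 and 0.12 ± 0.21), Cxcl16 at 379 ± 52.4, 315 ± 42.6 and 325 ± 60.0 CPM (-0.31 ± 0.13 and -0.22 ± 0.13), and Cxcl9 at 37.7 ± 6.45, 53.1 ± 12.7 and 50.8 ± 13.4 CPM (0.45 ± 0.18 and 0.43 ± 0.18). These 3 did not pass the test, with adjusted p between 0.0837 and 0.713.

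Among the atypical receptors, Ackr1 was called higher in Tim4+ KCs (1.63 ± 0.42), at 13.2 ± 6.58 CPM, and Ackr2 (-1.2 ± 0.37) and Ackr4 (-1.55 ± 0.54) lower in Tim4- KCs, at 4.09 ± 1.35 and 1.17 ± 0.942 CPM. These calls were lost in 3, 1 and 7 of the 18 fits that left out 1 sample, respectively (edgeR adjusted p up to 0.0689 for Ackr1, 0.0663 for Ackr2 and 0.0818 for Ackr4), and limma-voom called neither Ackr2 nor Ackr4 (adjusted p = 0.121 and 0.103). Of the 10 liver endothelial markers, 9 were called lower in Tim4- KCs (median log2 fold change -1.64), whereas 0 were called higher in Tim4+ KCs by edgeR, where 4 had an unadjusted p below 0.05 and the median was 0.58. Their sum was 821 to 2401 CPM (median 1553) in CRE- KCs, 1359 to 4043 CPM (median 1705) in Tim4+ KCs and 496 to 662 CPM (median 512) in Tim4- KCs. The list holds Cdh5, which the paper names as a core KC gene lost with Zeb2. Cdh5 was its highest gene in Tim4- KCs, at a mean of 123 CPM. The Tim4+ KC sample with the highest endothelial sum, replicate 2, also had the highest Ackr2 level of all samples, 27.1 CPM. For Ackr1, the receptor called in Tim4+ KCs, it was replicate 4 of that group without which the call was lost (1.39, edgeR adjusted p = 0.0689). The part of endothelial RNA in these values was not tested. Without CRE- KC replicate 3, the number of members that fell in Tim4- KCs went from 4 to 2, and without Tim4+ KC replicate 4 the number that rose in Tim4+ KCs went from 7 to 4. Samples without Y-linked counts alone gave 4 members that rose in Tim4+ KCs, and samples with them alone, 2 in each group, gave 6 in Tim4- KCs. All called genes, higher or lower, also went down in these fits, from 289 to 190 and from 1103 to 636, respectively.

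Set against each other, Tim4- KCs differed from Tim4+ KCs in 1 member that was higher and 4 that were lower, where 0.44% of all tested genes were called higher and 5.01% lower. The median log2 fold change was 0.19 over the members and 0.008 over all tested genes. Ccr2 was the higher one (2.40 ± 0.29, adjusted p = 3.00e-05), with every Tim4- sample above every Tim4+ sample. The lower ones were Cxcl13 (-2.28 ± 0.41), whose groups did not overlap, Ackr1 (-2.03 ± 0.43), Ackr2 (-1.76 ± 0.37) and Ackr4 (-2.53 ± 0.55). Equally numbered samples of these 2 groups deviated together, and with the replicate number as a block Ccr1 and Cx3cr1 were also called higher, 3 members in all. Without the block neither passed, with 1.64 ± 0.68 for Ccr1 (adjusted p = 0.13) and 1.06 ± 0.58 for Cx3cr1 (adjusted p = 0.27). In each of the 6 numbered pairs the Tim4- sample held more Ccr1 and more Cx3cr1 than the Tim4+ sample. The abundant members Ccr3 (0.30 ± 0.36), Ccl24 (-0.18 ± 0.21), Cxcl16 (0.09 ± 0.13), Cxcl9 (-0.03 ± 0.18) and Ccl6 (-0.31 ± 0.12) did not pass, with adjusted p of at least 0.0958.

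**Figure D3:**
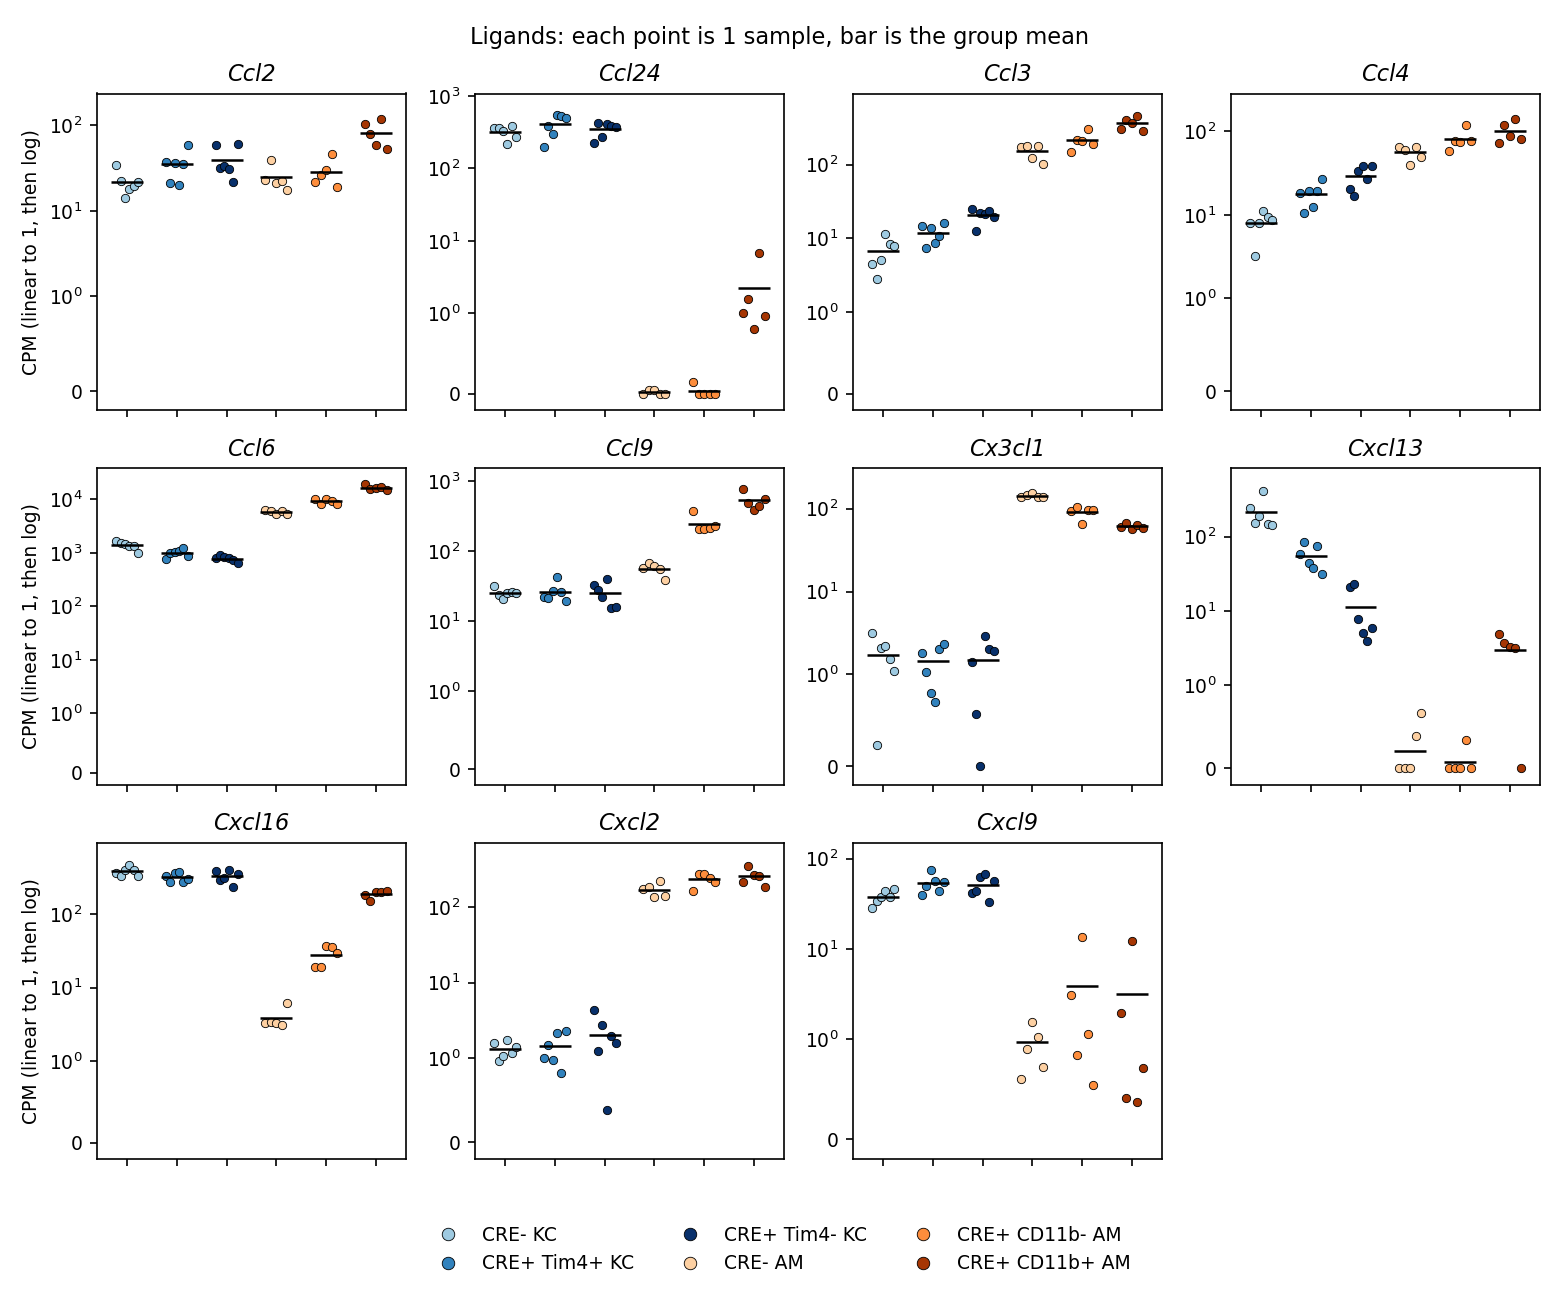
CPM of 11 ligands in each sample (points) with the group mean (bar), on an axis that is linear to 1 CPM and logarithmic above, with the 6 groups in the order of the legend. Cxcl13 steps down from CRE- to Tim4+ to Tim4- KCs, and Ccl6, Ccl9 and Cxcl16 step up from CRE- to CD11b- to CD11b+ AMs while Cx3cl1 steps down.

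In the lung, the question was which members change in AMs of Itgax-crexZeb2fl/fl mice. CD11b- AMs had 7 members higher and 0 lower than CRE- AMs among the 36 tested, where 3.98% of all 11573 genes tested were called higher and 2.51% lower. The 0 lower comes from edgeR, in which 4 members had an unadjusted p below 0.05 and a negative change, and limma-voom and DESeq2 each called 1 (Cxcl14). In CD11b+ AMs, 21 members rose and 3 fell, where 9.57% of all genes were called higher and 5.68% lower. The median log2 fold change over the members was 0.55 in CD11b- AMs and 1.64 in CD11b+ AMs, against 0.003 and -0.005 over all genes. The sample values of the groups did not overlap for 6 of the 7 called members in CD11b- AMs (85.7%, against 75.8% of all called genes) and for 23 of the 24 in CD11b+ AMs (95.8%, against 89.3%). Both comparisons share the 5 CRE- AM samples.

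Cxcr2, a receptor for the ELR ligands Cxcl1, Cxcl2 and Cxcl3, had the largest change among members counted in every sample. Its level was 88.9, 133, 170, 235 and 130 CPM in CD11b- AMs and 511, 502, 451, 571 and 522 CPM in CD11b+ AMs, from 3.33 ± 1.19 CPM in CRE- AMs. The log2 fold changes were 5.52 ± 0.25 (adjusted p = 5.51e-12) and 7.44 ± 0.27 (adjusted p = 2.34e-14). Its neighbour Cxcr1 was at 47.8, 49.3, 57.3, 63.5 and 49.6 CPM in CD11b- AMs and at 155, 135, 146, 142 and 149 CPM in CD11b+ AMs (3.23 ± 0.12 and 4.84 ± 0.12). For both receptors the 3 AM groups were fully separated. The window before the start of Cxcr2 is shown because it holds the letters CACCTG on either strand, the core of the E-box to which ZEB proteins are known to bind. This stretch is in capitals and occurs in 17.2% of all promoter windows, and the window before Cxcr1 does not hold it.
Cxcr2 (chr1:74153744-74153993, plus strand): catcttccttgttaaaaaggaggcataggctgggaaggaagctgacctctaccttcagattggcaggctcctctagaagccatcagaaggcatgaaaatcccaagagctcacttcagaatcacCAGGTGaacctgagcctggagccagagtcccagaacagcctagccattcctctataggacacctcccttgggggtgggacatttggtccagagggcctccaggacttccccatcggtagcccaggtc
Of the 46 members with a window, 9 hold these letters (Ccl20, Ccl27a, Ccl27b, Ccl28, Ccr1l1, Ccr4, Ccr9, Cxcr2 and Cxcr3). Their presence is no sign of binding.

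The neutrophil list, whose cells are known for Cxcr1 and Cxcr2, summed to between 89.4 and 115 CPM in CRE- AMs, 950 and 2390 CPM in CD11b- AMs and 7091 and 8992 CPM in CD11b+ AMs. Of its 7 genes tested, 5 were called higher in CD11b- AMs and 7 in CD11b+ AMs, with a median log2 fold change of 6.56 in the latter. S100a8 and S100a9 made up most of the sum, at 3962 and 3267 CPM in CD11b+ AMs. Csf3r, the receptor of granulocyte colony-stimulating factor, was at 39.2 ± 9.42 CPM in CRE- AMs, 115 ± 13.6 CPM in CD11b- AMs and 331 ± 19.2 CPM in CD11b+ AMs, and Mmp9, a granule protease, at 0.0675, 0.0103 and 13.1 CPM. Camp and Ngp, both granule genes, had no count in CD11b- AMs and were at 0.684 ± 1.32 and 2.92 ± 5.15 CPM in CD11b+ AMs. The part of neutrophil RNA in the counts of Cxcr1 and Cxcr2 was not tested.

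Other receptors rose less. Ccr1 was at 284, 331, 332, 391 and 287 CPM in CD11b- AMs and at 516, 555, 455, 522 and 482 CPM in CD11b+ AMs, with a log2 fold change of 0.61 ± 0.08 in the former (adjusted p = 1.42e-05, within 1) and 1.42 ± 0.08 in the latter (adjusted p = 2.99e-11). Ccr2 was at 14.0, 18, 8.55, 21 and 22 CPM in CD11b- AMs and at 38.2, 37.0, 16.3, 29.1 and 28.4 CPM in CD11b+ AMs (1.59 ± 0.28 and 2.6 ± 0.28). Every CRE+ AM sample thus had more Ccr2 than any CRE- AM sample. Cx3cr1 was at 0, 0.0418, 1.27, 0 and 0.0991 CPM in CD11b- AMs and at 10.02, 5.95, 4.62, 6.38 and 11.8 CPM in CD11b+ AMs (-0.40 ± 1.06 and 4.5 ± 0.98). Cx3cr1 was thus above all CRE- AM samples in each CD11b+ AM sample, which was not so in CD11b- AMs. The 7 monocyte genes summed to 608 to 1059 CPM in CRE- AMs, 73.0 to 171 CPM in CD11b- AMs and 318 to 601 CPM in CD11b+ AMs, led by Fn1 in each, and Vcan had no count in CRE+ AMs. Of the 6 tested, 1 was called higher and 1 lower (Fn1) in CD11b- AMs, and 5 higher and 1 lower (Fn1) in CD11b+ AMs, where the median log2 fold change was 3.58 and Ly6c2 was at 101 ± 44.7 CPM against 0.272 ± 0.341 CPM in CRE- AMs. The part of monocyte RNA in the counts of Ccr2 and Cx3cr1 was not tested. Cxcr3 (3.80) and Ccr9 (4.35) were also called higher in CD11b+ AMs at means of 1.36 and 2.06 CPM, and Cxcr6, the receptor of Cxcl16, was called in CD11b- AMs (2.63) at a mean of 0.794 CPM. The call of Cxcr6 was lost in 12 of the 15 fits that left out 1 sample, with the replicate block, in a fit of only the 2 groups and without the filter on low counts. Ccr9 overlaps Lztfl1 on the opposite strand, and the strand setting of the counting is not given in the sources used here. Cxcr4 was at 51.1, 61.2, 72.3, 66.0 and 65.7 CPM in CD11b- AMs and at 65.9, 59.2, 66.6, 75.0 and 86.7 CPM in CD11b+ AMs, within a log2 fold change of 1 (0.53 ± 0.11 and 0.86 ± 0.11) with adjusted p = 1.09e-03 and 1.84e-06.

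Of the ligands, Cxcl16 rose most among those counted in every CRE- AM sample. It was at 18.8, 18.8, 36.2, 35.7 and 29.8 CPM in CD11b- AMs and at 179, 151, 199, 201 and 204 CPM in CD11b+ AMs (2.87 ± 0.22 and 5.78 ± 0.23, adjusted p = 9.96e-09 and 1.23e-13). The 8 lung epithelial genes summed to 21.2 to 30.9 CPM in CRE- AMs, 81.1 to 127 CPM in CD11b- AMs and 422 to 770 CPM in CD11b+ AMs, where the keratins Krt8 and Krt18 made up 499 and 46.5 CPM. Of the 7 tested, 2 were called higher in CD11b- AMs (Krt8 and Krt18) and 3 in CD11b+ AMs (Sftpa1 in addition), and the part of epithelial RNA in the Cxcl16 counts was not tested. The CD11b+ AM samples had less Cxcl16 than the lowest KC sample of any group, which was at 234 CPM. Ccl9 was at 381, 208, 206, 216 and 234 CPM in CD11b- AMs and at 774, 496, 395, 446 and 557 CPM in CD11b+ AMs (2.15 ± 0.20 and 3.42 ± 0.21). Ccl6 was at 10009, 8145, 10273, 9476 and 8197 CPM in CD11b- AMs and at 19123, 15617, 16186, 16951 and 15049 CPM in CD11b+ AMs (0.69 ± 0.07, adjusted p = 1.10e-06, and 1.71 ± 0.08, adjusted p = 6.23e-13). For each of these 3 ligands the groups did not overlap. With TMM factors, which rescale each library to a common reference, the Ccl6 mean of CD11b+ AMs was 18580 CPM in place of 16585 CPM.

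Of the genes listed here as CCR2 ligands, a list that includes Ccl8, 4 of 4 were called higher in CD11b+ AMs, where 9.57% of all genes tested were. Ccl2 was at 21.4, 26.3, 30.2, 45.7 and 18.9 CPM in CD11b- AMs (0.22 ± 0.26, adjusted p = 0.59) and at 103, 78.9, 58.6, 118 and 52.4 CPM in CD11b+ AMs (1.92 ± 0.26, adjusted p = 5.59e-06). Ccl7 (2.39) and Ccl12 (3.30) were called higher in CD11b+ AMs as well. Ccl8 had no count in the 10 samples of the other 2 AM groups and 274 counts in CD11b+ AMs, at least 91.9-fold above CRE- AMs. Ccl24, with 2 counts in CRE- AMs and 234 in CD11b+ AMs, had a ratio of 118 (exact 95% interval for counting error 32.2 to 977), and 1 CD11b+ sample at 6.80 CPM was well above the other 4, which lay between 0.802 and 1.57 CPM.

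Ccl3 was at 150, 220, 207, 307 and 189 CPM in CD11b- AMs and at 305, 404, 369, 463 and 285 CPM in CD11b+ AMs (0.52 ± 0.18, adjusted p = 0.0403, and 1.45 ± 0.18, adjusted p = 1.85e-06). Ccl4 was at 58.3, 75.8, 75.1, 119 and 76.9 CPM and at 71.4, 118, 86.6, 141 and 80.1 CPM (0.56 ± 0.19 and 1.02 ± 0.20), so that it only just passed the fold threshold in CD11b+ AMs. Ccl22 rose in both groups (1.75 and 2.0). Cxcl1 rose in CD11b+ AMs (1.21), whereas Cxcl2, at 159, 273, 267, 243 and 213 CPM in CD11b- AMs and at 214, 351, 264, 254 and 182 CPM in CD11b+ AMs, stayed within the fold threshold (0.47 ± 0.16 and 0.76 ± 0.16, adjusted p = 0.0426 and 8.17e-04) and Cxcl3 fell in CD11b+ AMs (-1.2 ± 0.35). The 3 neighbours with the shared promoter letters thus did not move as one in CRE+ AMs. Cxcl13 was at 4.96, 3.69, 3.30, 3.14 and 0 CPM in CD11b+ AMs and was called higher (3.99 ± 1.18, adjusted p = 9.75e-03), but neither DESeq2 nor limma-voom called it.

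Cx3cl1 and Cxcl14 were the other members that fell in CD11b+ AMs. Cx3cl1 was at 92.7, 105, 65.2, 97.1 and 95.3 CPM in CD11b- AMs and at 60.9, 67.0, 57.7, 63.4 and 57.8 CPM in CD11b+ AMs (-0.64 ± 0.10, adjusted p = 5.37e-05, and -1.04 ± 0.10, adjusted p = 2.91e-08). All CRE+ AM samples lay below the 137 CPM of the lowest CRE- AM sample, while its receptor gene Cx3cr1 had gone up in CD11b+ AMs. Cxcl14 went from 7.64 ± 0.983 CPM in CRE- AMs to 3.15 ± 1.25 CPM in CD11b- AMs (-1.26 ± 0.49, adjusted p = 0.064) and 0.570 ± 0.767 CPM in CD11b+ AMs (-3.53 ± 0.55). Cxcl9 was listed at 13.5 CPM in 1 CD11b- sample and 12.3 CPM in 1 CD11b+ sample, both replicate 3, and at or below 3.08 CPM in the other CRE+ AM samples, and it was not called (1.99 ± 0.93 and 1.86 ± 0.93).

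**Figure D4:**
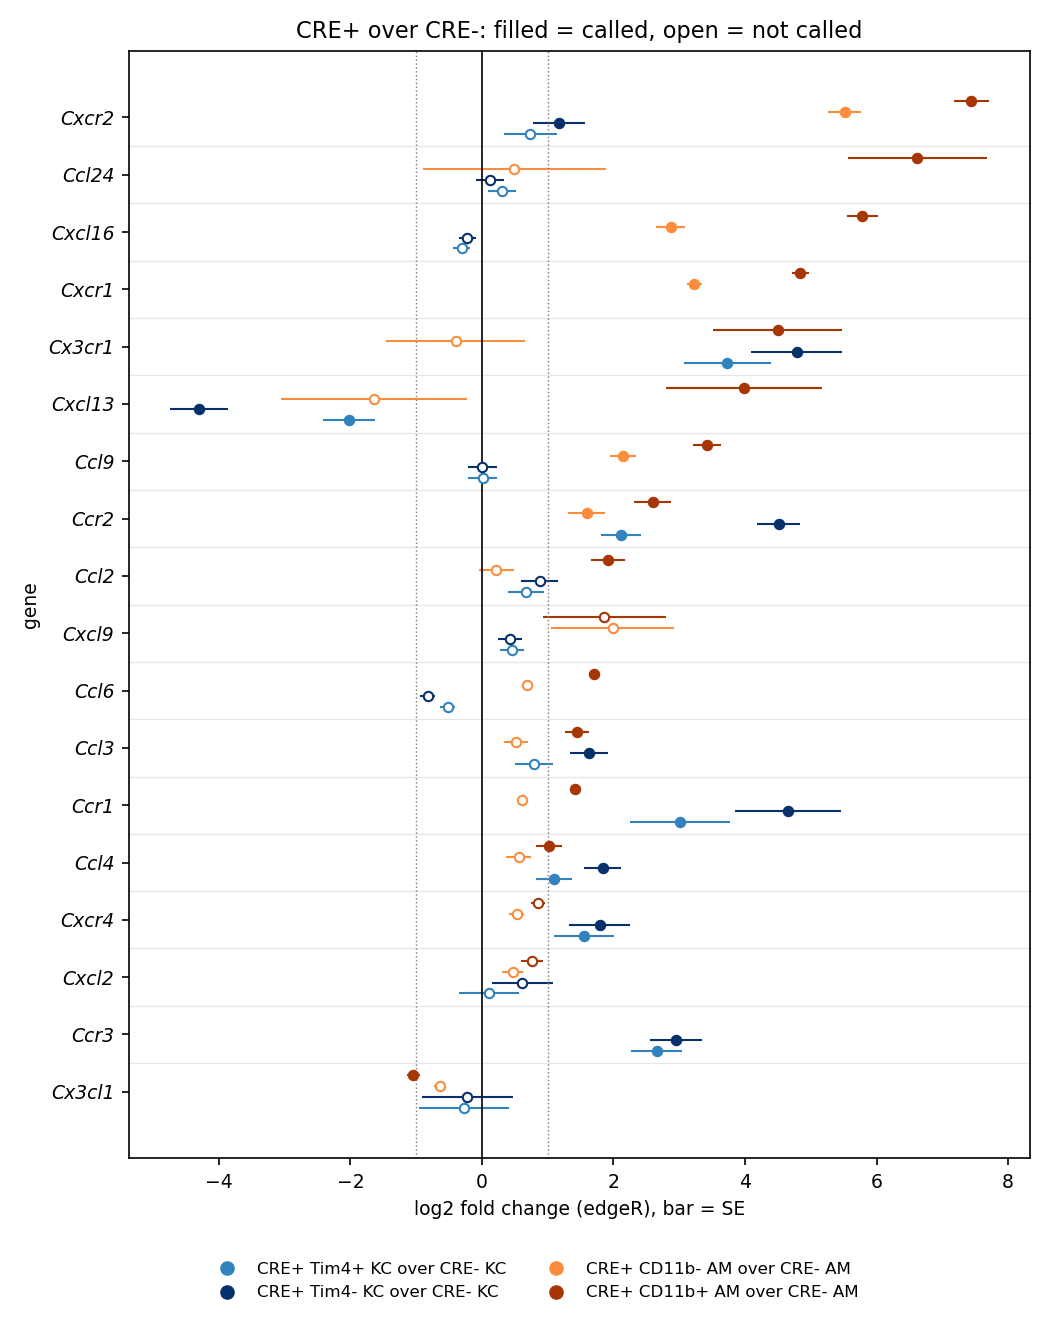
Log2 fold changes (x axis, bars are SE) of the 18 members shown by sample, in Tim4+ and Tim4- KCs over CRE- KCs and in CD11b- and CD11b+ AMs over CRE- AMs, with filled points for called changes; a point is missing where the gene was not tested. Cxcr2, Cxcl16 and Ccl9 lie further to the right in both AM groups than in both KC groups, and Cxcl13 lies to the left in both KC groups (called) and in CD11b- AMs (not called) and to the right in CD11b+ AMs.

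CD11b+ AMs also differed from CD11b- AMs, with 16 members higher and 2 lower, where 6.85% of all tested genes were called higher and 3.3% lower. The median log2 fold change was 0.89 over the members and 0.02 over all genes. Sample values of the 2 groups did not overlap for 11 of the 18 called members (61.1%, against 81.6% of all called genes). Among receptors, Cx3cr1 (4.89), Cxcr2 (1.92), Cxcr1 (1.61), Ccr7 (1.14) and Ccr9 (2.80) were higher, and Ccr2 stood at the fold threshold (1.0 ± 0.26, adjusted p = 5.60e-03). Among ligands, Cxcl16 (2.91), Ccl2 (1.70), Ccl7 (1.86), Ccl12 (3.36), Ccl9 (1.27), Ccl6 (1.02) and Cxcl13 (5.63) were higher, Ccl24 had a ratio of 77.9 (26.3 to 380, on 3 counts in CD11b- AMs), Ccl8 was at least 91.2-fold higher, and Cxcl14 (-2.27) and Ccl17 (-1.79) were lower. For Ccr2, Ccl6, Ccl9, Cxcr1, Cxcr2 and Cxcl16 the change between CRE- and CD11b- AMs and that between CD11b- and CD11b+ AMs went the same way. Ccl3 (0.93 ± 0.18), Ccr1 (0.81 ± 0.08), Cxcr4 (0.33 ± 0.11) and Cx3cl1 (-0.40 ± 0.10) passed by adjusted p only, and Ccl4 (0.46 ± 0.19, adjusted p = 0.070) and Cxcl2 (0.29 ± 0.16, adjusted p = 0.17) did not pass. Of the 15 fits that left out 1 sample, 7 lost the call of Ccl17, 5 that of Ccr2, 5 that of Ccr9, 3 that of Ccl6 and 1 that of Ccr7. Equally numbered samples of these 2 groups deviated together, and with the replicate number as a block Ccr2 and Ccr9 lost their calls. A fit of only these 2 groups lost the calls of Ccr2, Ccl6 and Cxcl13, and the Cxcl13 values of the 2 groups overlapped.

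Whether the change in CRE+ KCs differed from that in CRE+ AMs was tested directly, as the mean log2 change of Tim4+ and Tim4- KCs less that of CD11b- and CD11b+ AMs in one fit of all 33 samples. Of the 47 members tested, 2 had a higher change in KCs and 8 a lower one, where 3.5% of all 13294 genes tested were called higher and 4.65% lower. The median difference was -0.29 over the members and 0.01 over all genes. On the log2 scale, Ccr1 (2.82 ± 0.70, adjusted p = 3.31e-03) and Ccr2 (1.23 ± 0.39, adjusted p = 2.27e-02) gained more in KCs. Cxcr2 (-5.50 ± 0.42, adjusted p = 7.30e-12), Cxcl16 (-4.58 ± 0.24, adjusted p = 5.92e-16), Ccl9 (-2.77 ± 0.28) and Ccl6 (-1.86 ± 0.14) gained more in AMs on this scale, as did Cxcl1 (-2.04 ± 0.51) and Cxcr3 (-2.43 ± 0.72). A larger log2 change did not mean a higher level. Cxcr3 reached 0.784 CPM per kb in CD11b+ AMs against 6.18 in CRE- KCs. Ccr1 reached 15.5 CPM per kb in Tim4- KCs against 75.9 in CRE- AMs. Ccl6 was the abundant member that went down in KCs and up in AMs. Ackr2 was called as well, but with no count in CRE- AMs its fitted difference is no measure of size. The changes of Ccl3 (0.24 ± 0.31), Ccl4 (0.69 ± 0.32), Ccl2 (-0.29 ± 0.36), Cxcl2 (-0.28 ± 0.36), Cx3cl1 (0.59 ± 0.46), Cx3cr1 (2.21 ± 1.37), Cxcr4 (0.98 ± 0.38), Cxcl9 (-1.48 ± 0.81) and Cxcl13 (-4.32 ± 1.85) were not shown to differ between the tissues, and for Ccr3, Cxcr1 and Ccl24, with at most 3 counts in a group, the difference could not be estimated. Without the KC samples that held Y-linked counts, 5 members gained more in KCs (Ccr7, Cxcr4 and Cxcr5 in addition) and Cxcr3 lost its call (-2.19, edgeR adjusted p = 0.0665). The call of Ccr2 was lost without CRE- AM replicate 1, and limma-voom called neither Ccr2 (adjusted p = 0.118) nor Cxcr3 (adjusted p = 0.0863). Tissue is confounded with the Cre driver and with the sort, so these cannot be told apart.

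Members that lie next to each other did not always move together. The receptor genes Ccr9, Cxcr6, Xcr1, Ccr1, Ccr1l1, Ccr3 and Ccr2 lie in this order along chromosome 9. In Tim4- KCs, Xcr1, Ccr1, Ccr1l1, Ccr3 and Ccr2 of this row rose, with log2 fold changes from 1.03 for Ccr1l1 to 4.65 for Ccr1, whereas Ccr9 (-0.02 ± 1.11) and Cxcr6 (1.66 ± 0.76) did not pass. In CD11b+ AMs, Ccr9, Ccr1 and Ccr2 rose. On chromosome 11, the genes listed as CCR2 ligands (Ccl2, Ccl7, Ccl12 and Ccl8) lie in 1 cluster of 6 within 270 kb (chr11:82035571-82305690). This cluster had 4 called higher in CD11b+ AMs (9.57% of all genes tested) and 1 in Tim4- KCs (3.43% of all genes tested). The cluster of Ccl5, Ccl9, Ccl6, Ccl3 and Ccl4 within 139 kb (chr11:83525778-83664683) had 4 of 5 called higher in CD11b+ AMs and 3 of 5 in Tim4- KCs, beside the same shares of all genes. Ccl3 and Ccl4 were among them in both tissues, whereas Ccl6 and Ccl9 were so in the lung and Ccl5 in the liver. The 250 bases before the start of Ccl9 hold the NF-kB pattern 1 time, and those before Ccl6 do not hold it.

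**Figure D5:**
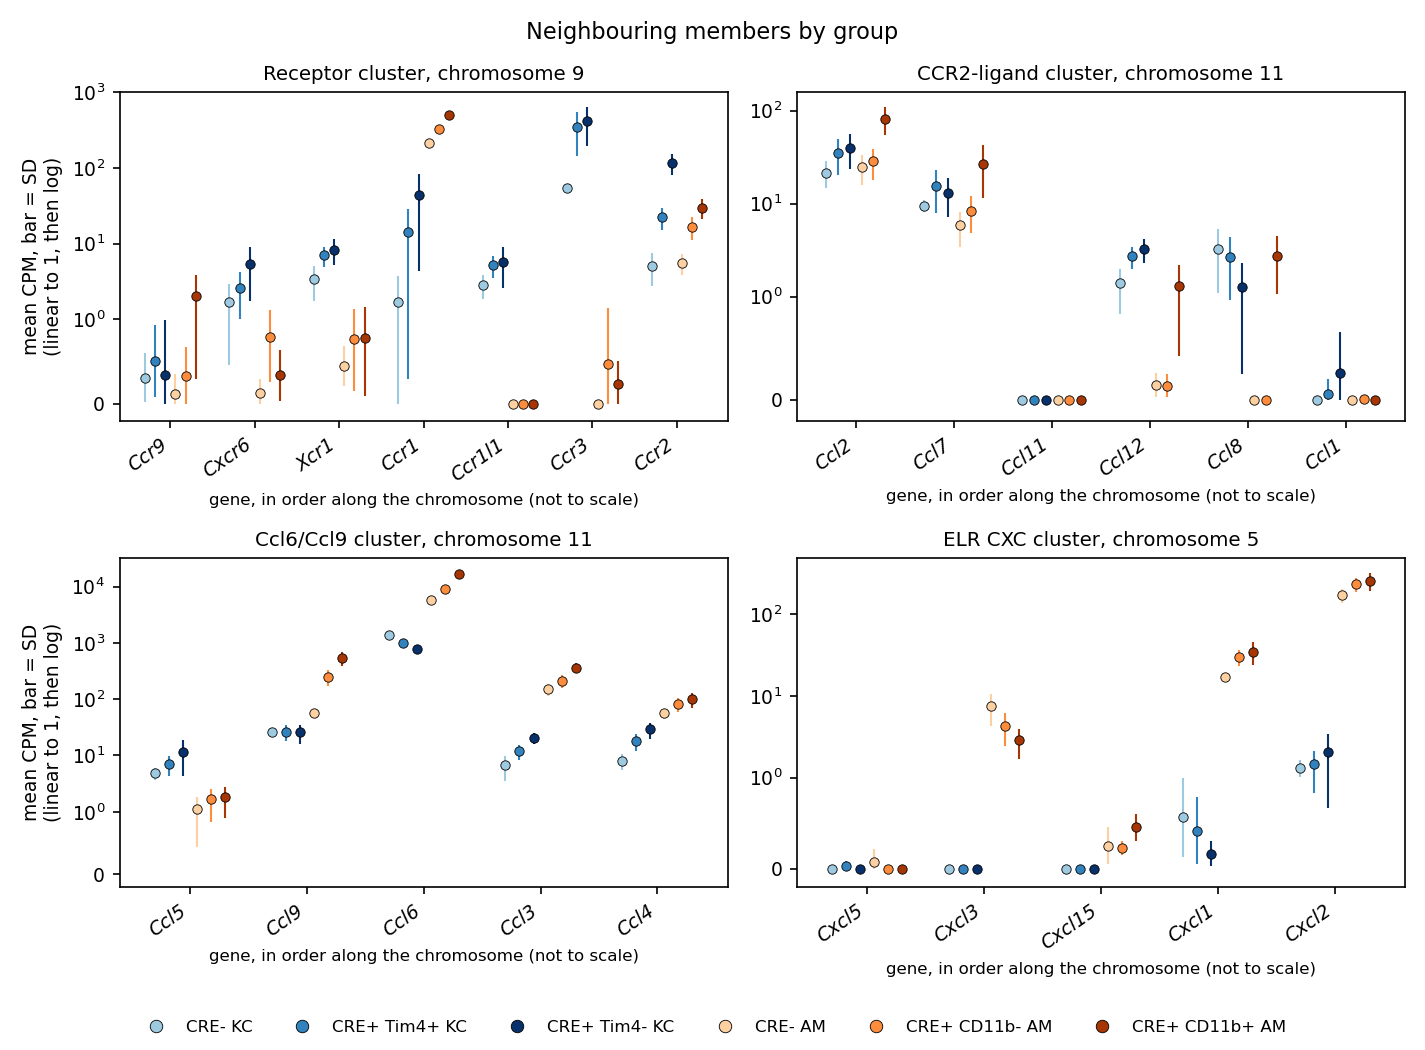
Group means of neighbouring members (y axis, CPM, linear to 1 and logarithmic above; bars are SD and stop at 0) in the order of the genes along the chromosome, for 4 clusters and 6 groups. In the chromosome 9 cluster, Ccr3 is high in KCs and Ccr1 in AMs, and in the Ccl6/Ccl9 panel all of Ccl9, Ccl6, Ccl3 and Ccl4 step up across the AM groups.

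The other genes of the chemokine pathway were taken from a list of 34 genes. These genes for signalling, desensitization and shedding, such as G protein subunits, arrestins and regulators of G protein signalling, had 0 called higher and 0 lower in Tim4+ KCs, 1 higher and 0 lower in Tim4- KCs, 1 higher and 1 lower in CD11b- AMs and 3 higher and 4 lower in CD11b+ AMs (edgeR, 34 tested in KCs and 33 in AMs). Over all genes tested, 1.94%, 3.43%, 3.98% and 9.57% were called higher and 0.376%, 5.39%, 2.51% and 5.68% lower in these comparisons. For the count of 0 in Tim4+ KCs, 8 of the 34 had an unadjusted p below 0.05 in edgeR. Median log2 fold changes were 0.03, 0.11, -0.05 and -0.14. Rgs1, which dampens chemokine receptor signalling, was the one gene called higher in Tim4- KCs (1.49), CD11b- AMs (1.07) and CD11b+ AMs (2.09). In CD11b+ AMs, Pf4, a CXC chemokine that the naming rule does not find, also rose (2.85), and Rac2 (-1.62), Grk5 (-1.57) and Gng2 (-1.08) fell. Between CRE- KCs and CRE- AMs, 10 of the 34 were higher and 5 lower, led by Cmklr1 (11.10), the chemerin receptor, Dpp4 (8.02), a peptidase that trims chemokines, and Pf4 (5.21). The list was chosen with earlier results of these data known, so its counts are a description.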

How the data were processed

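RNA from 33 samples of sorted KCs and AMs was sequenced by the authors. The deposited values are counts of reads per gene, 1 table a sample, with no normalization. According to the methods and the submitters' processing notes, reads were checked with FastQC 0.11.4, trimmed with Trimmomatic 0.35 (base quality 20, reads under 35 bases discarded), mapped to mm10 with TopHat2 2.1.0, handled with SAMtools 0.1.18 and counted with HTSeq. The annotation and strand setting of the counting are not given in the sources used here, so reads of genes that overlap on opposite strands may have been shared. The authors then used limma-voom.

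Counts were joined by symbol and divided by the total on genes to give CPM. edgeR 4.0.16 (R 4.3.3) with TMM factors, its default filter on low counts and the quasi-likelihood test was fitted to the 11 CRE- samples, the 18 KC samples, the 15 AM samples, and all 33 samples for the difference between tissues. Genes with a Benjamini-Hochberg adjusted p below 0.05 over all genes tested and a log2 fold change beyond 1 were called. SE was taken as the size of the log2 fold change over the root of its F value. Members with a mean of 50 CPM in any group are given by sample, and called members with a mean of 1 CPM or more in either group are named. The script was tested on simulated data. Alternatives were limma 3.58.1 with voom, DESeq2 1.42.0, other size factors, no filter, no fold threshold, fewer or more samples in the fit, a replicate block, samples with or without Y-linked counts, and leaving out each sample. Where a group had no count, 3 counts over the group were taken as the limit. Ratios on 1 to 3 counts have exact 95% intervals, and these intervals and limits cover counting error only. With 9837240 to 24332306 counts a sample, 3 counts over the 6 CRE- KC samples correspond to 0.0242 CPM.

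Equally numbered samples of Tim4+ and Tim4- KCs deviated together (correlation 0.134 to 0.277 in the 6 pairs, 6 of 6 closest to their own number), which comes from the data and not from the labels. The calls gained with the block are named beside that comparison, but the log2 fold changes and adjusted p printed there are without the block. The same held with lower correlations for CD11b- and CD11b+ AMs (0.0672 to 0.111 in the 5 pairs, 5 of 5 closest to their own number). The members, gene lists and tests were chosen with earlier results of these data known. Gene positions are from GENCODE M21 on GRCm38, which placed 61 of the 62 members, and promoter windows of 250 bases before the start are from RefSeq on GRCm38.p6, which matched 46. 1 receptor among the members was kept in the fits and counts but is not reported here.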

Additional observations from a re-analysis of the deposited data

Results flagged for a closer look

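Among the 18 members shown by sample, 105 groups of samples were examined for a highest or lowest sample that stands apart by Dixon's criterion, and 15 had one. For normally spread values chance gives about 1 in 20, but this rate does not hold for CPM near 0. A group with counts in only 1 sample stands apart by construction, as for Cxcr1 in Tim4+ KCs and for Ccl24 and Cxcl13 in CD11b- AMs. The number 15 is therefore not set against chance. In KCs these were replicate 4 of Tim4+ KCs for Ccr1 (41.8 CPM) and Ccl9 (42.7 CPM), replicate 4 of CRE- KCs for Cxcl13 (415 CPM) and replicate 3 of Tim4+ KCs for Cxcr1 (0.0444 CPM, a single count). In AMs, replicate 3 of CD11b- AMs stood apart for Cxcl9 (13.5 CPM), Ccr3 (2.12 CPM) and Cx3cr1 (1.27 CPM), and replicate 3 of CD11b+ AMs for Cxcl9 (12.3 CPM). The others were Ccl9 in CD11b- replicate 1 (381 CPM), Ccl24 in CD11b- replicate 1 (0.154 CPM) and CD11b+ replicate 4 (6.80 CPM), Cxcl13 in CD11b- replicate 4 (0.344 CPM), and, in CRE- AMs, Ccl2 in replicate 2 (39.7 CPM), Cx3cr1 in replicate 4 (1.59 CPM) and Cxcl16 in replicate 5 (6.13 CPM).

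For 9 members given here the change in CRE+ KCs differed from that in CRE+ AMs in the fit of all samples. The log2 change was larger in KCs for Ccr1 (by 2.82) and Ccr2 (by 1.23). The difference, KCs less AMs, was -5.50 for Cxcr2, -4.58 for Cxcl16, -2.77 for Ccl9, -2.43 for Cxcr3, -2.04 for Cxcl1 and -1.86 for Ccl6. It was -4.49 for Ackr2, a fitted value that depends on the prior count because CRE- AMs had none.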

How the results depend on the processing

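Of 16 counts of members and 122 log2 fold changes of called members, 777 gene values kept their direction and side of the threshold outside the fits that left out a sample, 59 lost their call and 1 reversed. The reversed value was the log2 fold change of Cxcr5 in Tim4- KCs over CRE- KCs, which was -0.74 in the samples with Y-linked counts alone (2 a group). The counts of members moved as follows, and the cause was not tested unless fewer samples show it. With limma-voom, 4 members rose in Tim4+ KCs, 2 fell in Tim4- KCs and 1 fell in CD11b- AMs. DESeq2, a fit of only the 2 groups, the replicate block and no fold threshold likewise gave 1 that fell in CD11b- AMs, and no fold threshold gave 14 that rose there. Samples without Y-linked counts gave 4 members that rose in Tim4+ KCs and 5 with a larger change in KCs than in AMs. Samples with them gave 0 members that fell in Tim4+ KCs, 6 that rose and 1 that fell in Tim4- KCs, and, between Tim4- and Tim4+ KCs, 2 higher and 1 lower. All called genes went from 289 to 190 in Tim4+ KCs in the samples without Y-linked counts. In the samples with them, these went from 289 to 237 in Tim4+ KCs, from 1103 to 636 in Tim4- KCs and from 681 to 178 between the 2. With TMM scaling, the members made up 21940 CPM in CD11b+ AMs in place of 19582 CPM.

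Leaving out 1 sample gave 4 to 7 members that rose in Tim4+ KCs (4 without Tim4+ KC replicate 4), 2 to 4 that fell in Tim4- KCs (2 without CRE- KC replicate 3), 1 to 2 higher in Tim4- than Tim4+ KCs (2 without Tim4+ KC replicate 4), 0 to 1 that fell in CD11b- AMs, 1 to 2 lower in CD11b+ than CD11b- AMs, and 1 to 3 with a larger change in KCs (1 without CRE- AM replicate 1). The 1 was reached for CD11b- AMs without CRE- AM replicate 2, CD11b- AM replicate 1 or CD11b+ AM replicates 1 or 4, and for CD11b+ over CD11b- AMs without CD11b- AM replicates 1, 3 or 5 or CD11b+ AM replicates 2, 3, 4 or 5.

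With the replicate number as a block, 3 members were higher in Tim4- than Tim4+ KCs. All 5 CD11b- AM samples also correlated best with the CD11b+ AM sample of their own number. Between these 2 groups the block moved the called members from 18 to 16, with Ccr2 and Ccr9 lost. In the comparisons of CRE+ with CRE- samples, equal numbers join samples of different genotypes. The block moved the called members from 19 to 15 in Tim4- KCs and from 24 to 23 in CD11b+ AMs. Depth limits members under about 1 CPM, where a sample holds few counts.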
